A study of Mus musculus with 8 samples.

Results

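NONCODE lncRNA transcripts are the long noncoding RNAs that the array designers took from NONCODE, a database that collects noncoding transcripts from many sources and gives each a NONMMUT number in the mouse. They were chosen as every non-control probe whose identifier starts with NONMMUT. There were 55674 such probes of 150305 non-control probes on each array (37.0%), 1 probe of 60 bases to each transcript, and no 2 of them had the same sequence. The arrays were 8 1-colour Agilent arrays of total RNA from mouse spinal cord, 4 after contusion injury and 4 controls, from female mice 8 weeks old. The tissue was the T9 to T10 stretch of cord around the injury, and 1 fluorescent dye (Cy3) marked every sample.

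The control cords are called normal in the descriptions of the samples and sham in the text on the design. All 4 contusion samples carry 3 days in their titles, while their descriptions give 3, 4, 5 and 6 days for replicates 1 to 4. No allele, strain or drug is named. Control 2, 3 and 4 and contusion 1 were on 1 slide and control 1 and contusion 2, 3 and 4 on the other, so that slide and stated day cannot be told apart among the contusion samples. The text on the design counts 8 mice, 1 to each sample as far as the labels say.

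Long noncoding RNAs are transcripts without a long open reading frame. Some act on chromatin or transcription near the place where they are made, others act as host transcripts of microRNAs or as scaffolds for proteins, and for most no function is known. Many are made at low levels and in few cell types, and the nervous system is among the tissues that make a large variety of them. After a contusion, blood cells and macrophages enter the cord and neurons and glia are lost around the lesion. In bulk tissue, fewer cells of a type and less RNA per cell cannot be told apart.

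The probes carry the only sequence given for these transcripts here, and a genome position is known for only a few of them. The first set shows the transcript with the largest fitted rise beside the RefSeq probe for Speer6-ps1, a transcribed pseudogene of the Speer family, with the bases that both probes share in capitals.
NONMMUT016187: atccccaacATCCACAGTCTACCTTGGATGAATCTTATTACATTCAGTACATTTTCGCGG
Speer6-ps1 probe: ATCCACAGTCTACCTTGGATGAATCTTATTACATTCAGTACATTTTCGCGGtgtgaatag
The second set shows 2 transcripts whose probes end differently but overlap the RefSeq probe for the long noncoding RNA 9330188P03Rik, so that 3 probes share a stretch of bases. Capitals mark the bases shared with the RefSeq probe, given in the last line as paired with NONMMUT022151.
NONMMUT022151: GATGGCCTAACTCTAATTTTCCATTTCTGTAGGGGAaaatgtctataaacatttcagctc
NONMMUT022145: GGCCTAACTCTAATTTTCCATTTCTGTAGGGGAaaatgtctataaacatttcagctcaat
9330188P03Rik probe: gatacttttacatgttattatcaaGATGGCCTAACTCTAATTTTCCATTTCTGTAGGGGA
The third set shows the probe of a transcript that lies upstream of the chemokine gene Ccl3 in the opposite direction, and the fourth the probes of 2 transcripts that fell, one poor and one richer in G and C, with every G and C in capitals in the fourth set.
NONMMUT084062: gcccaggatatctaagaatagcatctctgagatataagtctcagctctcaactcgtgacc
NONMMUT126303: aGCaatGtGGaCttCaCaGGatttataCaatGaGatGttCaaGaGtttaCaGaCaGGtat
NONMMUT016063: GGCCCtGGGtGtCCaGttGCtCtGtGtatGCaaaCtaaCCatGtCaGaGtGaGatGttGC

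Levels below are log2 of the processed signal minus the 75th percentile of that array, so that a level of 0 is the signal at that percentile and a level of -3 is 3 doublings below it. A probe is well above background where the scanner software flagged its signal as such in that sample. A level is a property of a probe as much as of its RNA, and levels of different probes were not compared. Cell type markers on the same arrays gave a view of the tissue. The 6 macrophage and microglia markers all rose and their mean level was 4.92 to 5.20 in the contusion samples against 1.32 to 3.14 in the controls. All 4 markers of dividing cells and all 3 of red blood cells also rose. The 8 neuronal markers all fell, with mean levels of 4.75 to 5.02 after contusion and 5.61 to 5.87 in controls. Of the oligodendrocyte markers 1 of 6 fell, and of 5 astrocyte markers 3 rose and 2 fell. The mean level of the 4 skeletal muscle markers was 4.47 in contusion 1 and 2.24 in contusion 2, against -1.03 to 1.40 in the other 6 samples, and none of the 4 passed the test. Of 4 neutrophil markers 1 rose, of 3 tested markers of dorsal root ganglion 1 rose and 1 fell, and of 3 skin markers 1 fell. The 4 forebrain markers had a mean level of -2.24 to -1.76. Of these 4, 3 were well above background in all 8 samples, and 1 of the 3 tested fell. The 5 Hox genes of the thoracic cord were well above background in all 8 samples, and 2 of the 5 fell. Across the tested NONCODE transcripts, samples of 1 group correlated at 0.967 to 0.981 and samples of different groups at 0.944 to 0.965.

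The share of NONCODE probes above background was lower in the contusion samples. Of the 55674 probes, 23609 (42.4%) were well above background in all 8 samples, 18879 (33.9%) in none, and 13186 (23.7%) in 1 to 7 samples. The share of NONCODE probes well above background was 52.9%, 55.3%, 52.9% and 55.0% in control 1 to 4 and 50.7%, 51.7%, 51.6% and 49.7% in contusion 1 to 4. Every contusion sample lay below every control sample. The shares of mRNA probes, 86.6% to 86.8% in controls and 86.6% to 87.2% after contusion, overlapped between the groups. Over all probes of every class the shares were also apart, 74.3% to 75.4% in controls and 72.9% to 74.1% after contusion. The lowest processed signal flagged as well above background was 4.24 to 5.55 intensity units on the control arrays and 5.75 to 6.25 on the contusion arrays, so that this limit moved with the groups. The median level of all NONCODE probes overlapped, from -5.07 to -4.85 in controls and from -5.22 to -4.90 after contusion. The part of the higher limit in the detection counts was not tested. A probe was well above background in more control than contusion samples in 7664 cases and in more contusion than control samples in 3851.

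**Figure D1:**
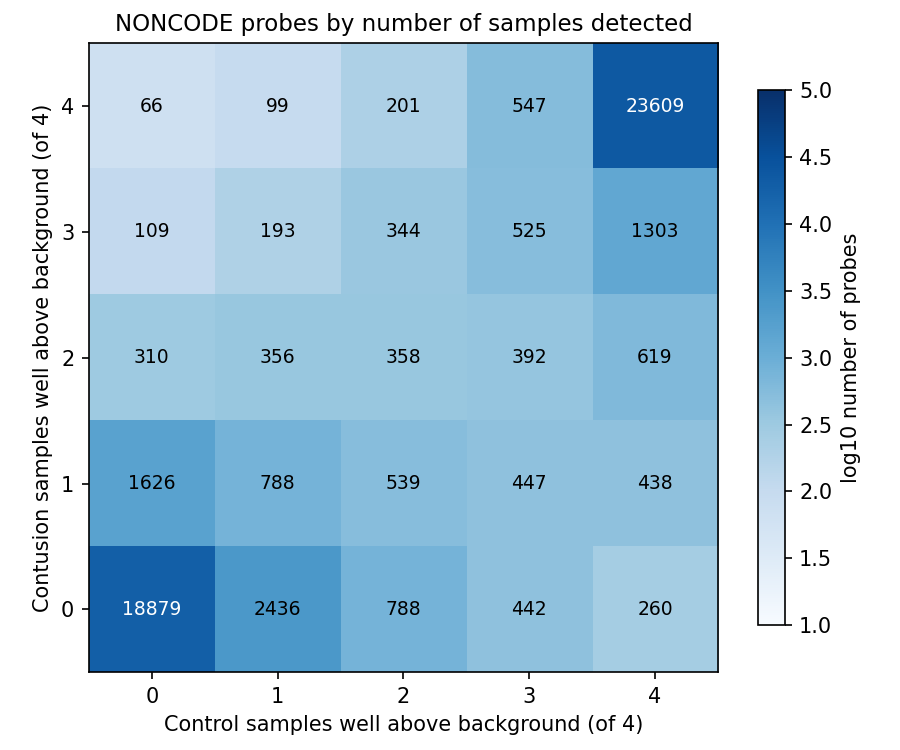
Number of NONCODE probes by the number of control samples (horizontal axis) and contusion samples (vertical axis), of 4 each, in which the probe was well above background; the colour gives the number on a log10 scale. Most of the 55674 probes sit in the corners, 18879 in none and 23609 in all samples, and the lower right corner, detected in all controls and no contusion sample, holds 260 against 66 in the upper left.

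At the corners of that grid, 66 probes were well above background in all 4 contusion samples and in no control, and 260 in all 4 controls and no contusion sample. These counts move with single samples, since 1 sample fewer eases the condition. They were 106 and 521 without control 1 and 101 and 442 without contusion 1. The 29401 transcripts that were well above background in at least 4 of the 8 samples (52.8%) were tested, and the other 26273 were not.

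Fewer NONCODE transcripts than other features changed after contusion, and those that changed mostly fell. The test was limma's moderated test over all 89139 features of every RNA class together, with p-values adjusted over all of them by Benjamini-Hochberg, and a transcript was called at an adjusted p under 0.05. Of the 29401 tested NONCODE transcripts, 8038 were called (27.3%), against a background of 38.6% of all features. There were 1907 called higher (6.49%, background 14.7%) and 6131 called lower (20.9%, background 23.9%). Calls of at least 2-fold numbered 361 higher (1.23%, background 3.36%) and 652 lower (2.22%, background 1.48%). The 2 groups did not overlap for 7562 transcripts (25.7%, background 38.7%). No test compared the classes. The RefSeq noncoding RNAs on the same arrays, 758 of them tested, had 43.8% called, the Ensembl lncRNAs 34.3%, the circular RNAs 41.9% and the mRNAs 51.1%.

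Most of the called differences were modest. The median NONCODE difference over all tested transcripts was -0.07 on the log2 scale, beside -0.05 for all features, and the 5th and 95th percentiles of the NONCODE differences were -0.85 and 0.61. Called rises had a median of 0.56 and called falls a median of -0.61. The standard error of a difference had a median of 0.143 for NONCODE transcripts and 0.0945 for mRNAs. Within slide 1 the median difference was -0.14 and within slide 2 it was -0.12, each resting on 1 sample of one group. With slide as a block, 1353 were called higher and 5381 lower. Without the slide term and with normexp background correction in place of the scanner's processed signal, 1229 were called higher and 3934 lower, but only 39 and 17 of them by at least 2-fold.

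By level, the share called rose from dim to bright probes and remained under the background of its band throughout. Under a mean level of -3, where 15358 of the 29401 tested transcripts lay, 21.1% were called, against 23.9% of all features in that band. From -3 to -2, 30.5% of 4894 were called (background 35.4%). From -2 to 0, 33.8% of 5902 were called (background 42.0%). From 0 to 2, 38.9% of 2444 were called (background 49.7%), and at 2 or more, 46.1% of 803 (background 54.7%). The share called higher was below its background in all 5 bands, while the share called lower was near it. From -3 to -2, 7.38% were called higher (background 13.4%) and 23.1% lower (background 22.1%). From -2 to 0 the shares were 7.54% (background 14.8%) and 26.2% (background 27.3%), and from 0 to 2 they were 10.2% (background 19.5%) and 28.7% (background 30.2%). In the brightest band 11.8% of NONCODE transcripts were called higher (background 23.1%) and 34.2% lower (background 31.6%). In the dimmest band 4.92% were called higher (background 9.02%) and 16.1% lower (background 14.9%). The share of calls that were falls was between 73.7% and 77.7% in the 5 bands, against 57.8% to 64.9% over all features.

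**Figure D2:**
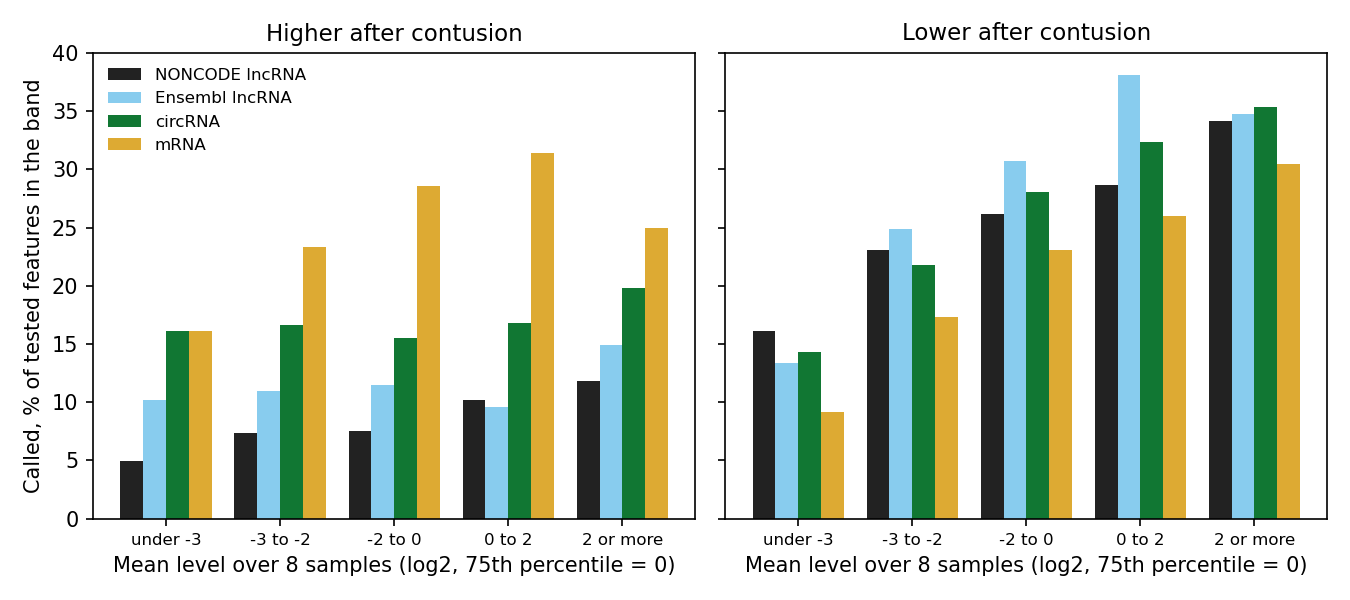
Percentage of tested features called higher (left) and lower (right) after contusion, by the mean level of the probe over all 8 samples, for NONCODE lncRNAs, Ensembl lncRNAs, circular RNAs and mRNAs. The black NONCODE bars for rises stay between 4.92% and 11.8%, and those for falls climb from 16.1% to 34.2% with the level.

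The number of samples in which a transcript was detected bore on the calls in another way. Of the 23609 transcripts well above background in all 8 samples, 28.9% were called (background 40.2% of all features so detected). Of the 1850 detected in 7 samples 17.7% were called (background 20.8%), and of the 1324 detected in 4 samples 24.8% (background 27.3%). The last group holds the transcripts detected in 1 group only, which passed the filter through the group where they are high. Their direction was fixed by how they were chosen. Their calls, 64 higher and 221 lower, are part of the 328 calls behind the 24.8% and of the totals above. They are no support for a direction.

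The dim group of such a transcript has only a bound. An adjusted p printed below for such a transcript rests on signals at background in that group and is no support for a direction. The lower limit of the change was taken as the brighter group's mean over the lowest signal well above background on each array of the dim group, or over the probe's own signal where that is higher. By this measure the 66 transcripts of the contused cord were at least 2.33-fold higher in the median and at least 9.24-fold at the most. The 260 of the control cord were at least 1.43-fold higher in controls in the median, and at least 3.92-fold at the most. At least 2-fold was reached by 45 of the 66 and by 19 of the 260.

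The largest rises and falls below were chosen among called transcripts whose groups do not overlap, so that the absence of overlap is no result. The largest fitted rise was that of NONMMUT016187, whose probe shares 51 bases with the Speer6-ps1 probe. Its level was -5.72, -5.15, -6.58 and -7.65 in control 1 to 4 and -1.17, -1.18, -1.71 and -0.93 in contusion 1 to 4. Every contusion sample was high and the groups were far apart, and 1 of 4 controls was well above background. The difference was 5.03 ± 0.49 (SE, limma, n = 4 and 4, adjusted p = 0.000219), and with the dim control signals set to their arrays' lowest level well above background it was 17.1-fold. The Speer6-ps1 probe was well above background in all contusion samples and no control, and it was at least 12.3-fold higher (limma adjusted p = 4.63e-05). The Speer genes have near-identical copies, so that the source of this signal among them is uncertain.

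NONMMUT099793 had levels of -5.74, -6.32, -5.79 and -7.70 in controls and -2.01, -2.13, -2.42 and -2.48 after contusion. No control was well above background and all contusion samples were, and it was at least 9.24-fold higher (fitted difference 4.13 ± 0.41, limma adjusted p = 0.000226). NONMMUT116504 had levels of -3.42, -4.81, -4.29 and -5.95 in controls and -0.48, -0.48, -0.64 and -0.42 after contusion. Its contusion samples lay close together and its controls far apart, with control 4 the lowest. It was well above background in 3 controls and rose by 4.11 ± 0.46 (limma adjusted p = 0.000348). NONMMUT111608, detected in 2 controls, had a fitted rise of 3.85 ± 0.46, which is 14.5-fold. With the other 2 controls set to their arrays' lowest level well above background it was 8.84-fold, and control 4 was again its lowest sample. Control 4 also had the lowest mean of the macrophage and microglia markers, 1.32 against 2.45 to 3.14 in the other controls. Its mean of the markers of dividing cells was the lowest too (-2.07). Whether these go together was not tested. The other 2 transcripts of the top 6 were detected in no control.

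For NONMMUT091202 the levels were -7.36, -7.52, -7.43 and -7.55 in controls and -2.93, -3.56, -3.33 and -3.47 after contusion. It was at least 4.42-fold higher, with no control well above background. Its adjusted p of 4.63e-05 (limma, fitted difference 4.14 ± 0.13) was among the 3 smallest of the rises. That p rests on the spread of control signals at background. Its groups were each close together and far from each other. NONMMUT114062 was at least 4.47-fold higher. NONMMUT008669 and NONMMUT023654, which complete the 3 rises with the smallest p, were at least 2.46-fold and 2.79-fold higher, each detected in all contusion samples and no control.

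The largest falls by fitted difference included several transcripts with neighbouring numbers. Of these 6, 3 had no contusion sample above background, so that their place in this order rests on signals at background and their bounds are smaller than some falls measured in all samples. NONMMUT126308 had levels of -4.22, -3.79, -3.75 and -3.47 in control 1 to 4 and -7.21, -7.37, -6.41 and -7.23 in contusion 1 to 4. No contusion sample was well above background, and it was at least 2.70-fold lower (fitted difference -3.25 ± 0.23, limma adjusted p = 0.000112). NONMMUT126303, whose probe is shown above, was at least 2.48-fold lower, and its difference was -3.95 within slide 1 and -2.19 within slide 2. NONMMUT087830 was at least 2.03-fold lower. By comparison NONMMUT103576 and NONMMUT082393, detected in all 8 samples, were 3.94-fold and 3.32-fold lower. Of the remaining 3 of the 6, 2 were well above background in all contusion samples and 1 in a single contusion sample.

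NONMMUT101069 had levels of -0.54, -0.39, -0.55 and -0.78 in controls and -3.55, -3.36, -3.76 and -4.34 after contusion. It was well above background in all 8 samples and fell by 3.19 ± 0.20 on the log2 scale, which is 9.13-fold (limma adjusted p = 8.33e-05). NONMMUT126292 had levels of -1.80, -1.21, -1.14 and -0.97 in controls and -3.32, -4.14, -3.66 and -3.77 after contusion, also well above background in all samples. Its difference was -2.44 ± 0.22 (limma adjusted p = 0.000174), or 5.44-fold. NONMMUT126294 had a difference of -2.38 ± 0.25 and was well above background in 1 of 4 contusion samples. With the other 3 set to their arrays' lowest level well above background it was 4.05-fold lower.

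**Figure D3:**
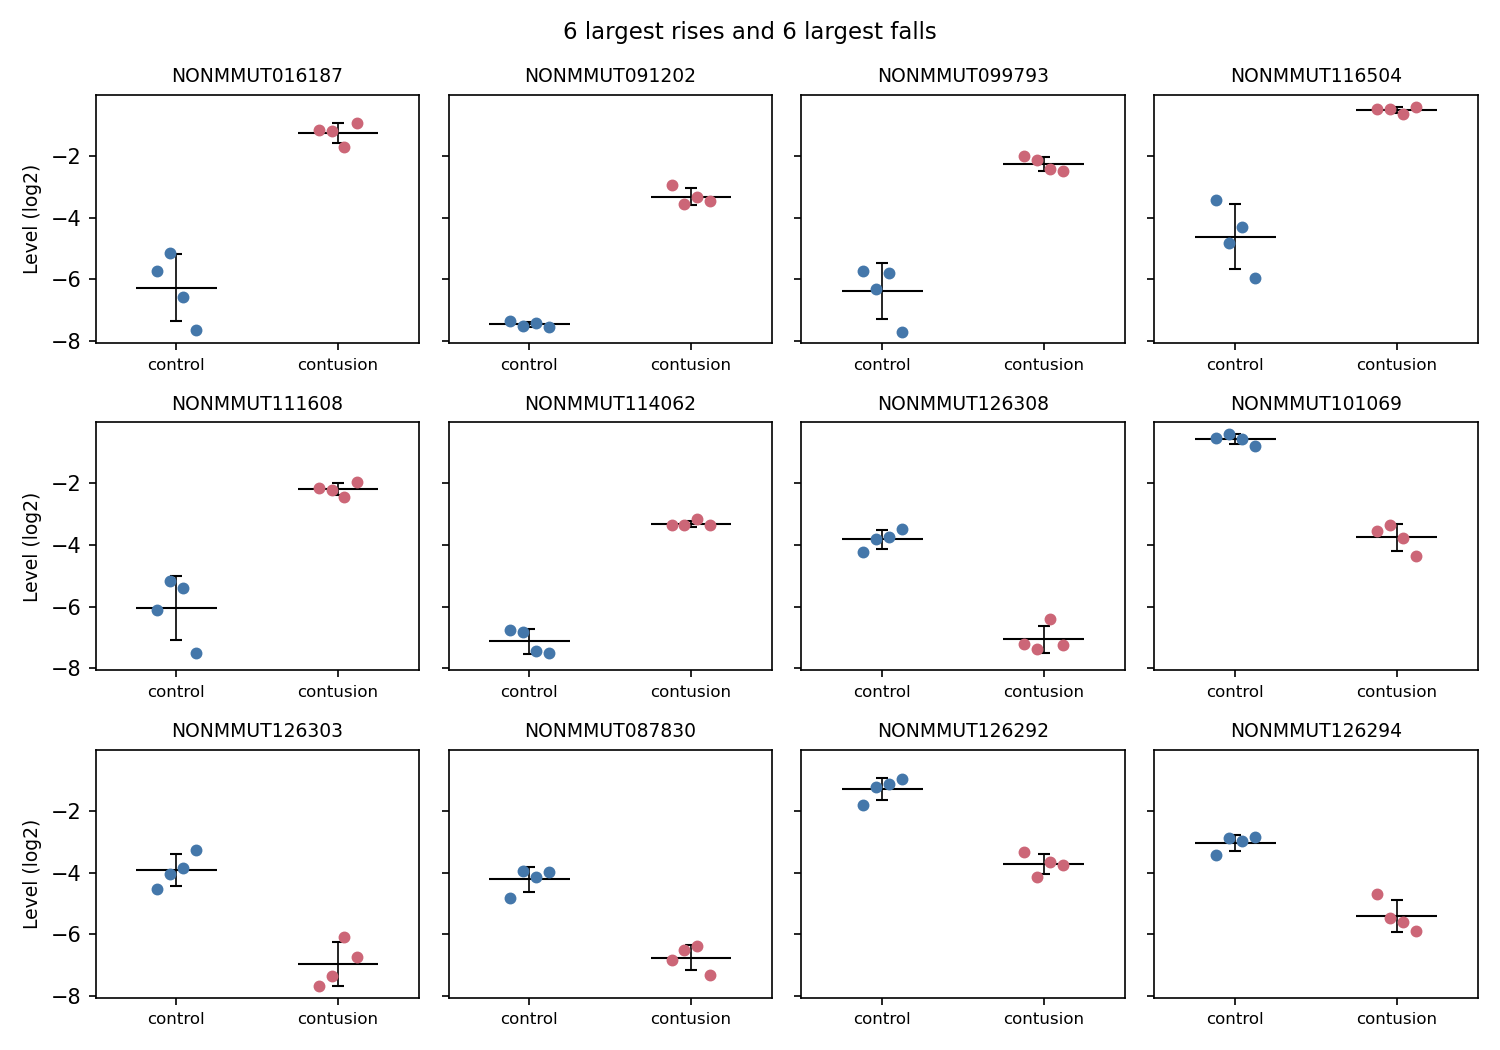
Level (log2, 75th percentile of the array = 0) of the 6 transcripts with the largest called rises and the 6 with the largest called falls, 1 point per sample (blue, control; red, contusion), with the mean (line) and SD (bar) of 4 samples. The groups are apart in all 12 panels because the transcripts were chosen for groups that do not overlap. The control points run from -5.15 to -7.65 for NONMMUT016187 and only from -7.36 to -7.55 for NONMMUT091202.

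Size depended on how dim signals were treated. With normexp background correction the difference of NONMMUT016187 was 1.40, that of NONMMUT091202 was 0.53 and that of NONMMUT126308 was -0.34, all still called. For the bright probe of NONMMUT108692 it was 2.65 ± 0.30 with the processed signal and 2.57 with normexp.

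Among transcripts detected in all 8 samples, the largest changes in each band were measured above background in both groups. These too were chosen among called transcripts whose groups do not overlap. In the band of 2 or more, NONMMUT108692 had levels of 1.57, 1.07, 1.48 and 0.08 in controls and 3.65, 3.67, 3.62 and 3.86 after contusion. Control 4 was its lowest sample. NONMMUT016063, the largest fall of that band, had levels of 4.63, 4.97, 4.80 and 5.05 in controls and 3.51, 2.90, 3.65 and 3.60 after contusion, a difference of -1.45 ± 0.18 (limma adjusted p = 0.000486). It was 2.73-fold lower.

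From 0 to 2, NONMMUT074355 rose by 2.37 ± 0.18, with 1 control level left out because its spot was marked as an outlier. NONMMUT100615 had a difference of -1.41 ± 0.11 in the same band. From -2 to 0, NONMMUT084830 rose by 2.90 ± 0.26 and NONMMUT103576 had a difference of -1.98 ± 0.23. From -3 to -2, the largest rise was that of NONMMUT011251, with levels of -3.78, -4.12, -4.51 and -4.54 in controls and -1.18, -1.21, -1.28 and -1.34 after contusion, a difference of 2.99 ± 0.16 (limma adjusted p = 8.21e-05). The largest fall of that band was that of NONMMUT101069, given above. Under -3, NONMMUT106269 rose by 2.45 ± 0.19 and NONMMUT082393 had a difference of -1.73 ± 0.14.

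The falls with the smallest adjusted p were not the largest. NONMMUT135923 had levels of 2.98, 3.09, 3.06 and 3.15 in controls and 1.91, 1.95, 1.90 and 1.74 after contusion. The spread within each group was small, with SDs of 0.07 and 0.09, and the difference was -1.20 ± 0.07 (limma adjusted p = 8.21e-05). NONMMUT107728 and NONMMUT098921 had differences of -1.17 ± 0.07 and -1.16 ± 0.07. Of the transcripts detected only in controls, NONMMUT106474 and NONMMUT110820 were at least 1.41-fold and 1.23-fold lower. They lost the call with normexp, where their differences were -0.07 (limma adjusted p = 0.444) and -0.08 (limma adjusted p = 0.420).

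Some transcripts held their level closely across both groups. In each band the one with the smallest standard error among absolute log2 differences under 0.1 was taken, so that narrow intervals come from the choice. NONMMUT131449 was between -2.01 and -1.95 in all 8 samples, and the 95% interval of its difference was -0.12 to 0.12. NONMMUT102104 was between 3.12 and 3.16 in controls and 3.03 to 3.08 after contusion, so that its groups did not overlap. The interval of its difference was -0.21 to 0.04. NONMMUT011271 had a difference of 0.01 and an interval of -0.12 to 0.15, and its groups overlapped. For NONMMUT110406 and NONMMUT135330 the differences were 0.09 ± 0.06 and -0.07 ± 0.05, neither called. The groups of NONMMUT135330 also did not overlap.

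Some NONCODE probes share a stretch of bases with another probe. There were 723 pairs of NONCODE probes that shared at least 30 bases on the same strand, and of the 302 pairs in which both were tested, 54 were both called, all 54 the same way. In 60 of these pairs only 1 probe was called, and in 188 neither. The median gap between the 2 differences was 0.15 on the log2 scale, its 90th percentile was 0.54, and the differences correlated at r = 0.696 over the 302 pairs. With RefSeq noncoding RNAs, 60 pairs shared as much, 28 had both tested and 15 both called, all the same way, with 1 pair in which only 1 probe was called, and the median gap was 0.08. With Ensembl lncRNAs, 38 of 120 tested pairs were both called, again all the same way, and in 16 only 1 was. Such pairs share bases and are not independent, and whether both probes of a pair read 1 RNA was not tested. The gene names given below for some NONMMUT numbers, from the RefSeq gene table, rest on these shared bases alone.

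Of the 28 transcripts linked to a RefSeq noncoding RNA in this way, 8 were called higher (28.6%, background 14.7% of all features) and 8 lower (28.6%, background 23.9%). Of all tested RefSeq noncoding RNAs 43.8% were called, and of these 28 transcripts 57.1%. NONMMUT022151 had levels of 0.31, 0.13, 0.24 and -0.12 in controls and 1.32, 1.37, 1.50 and 1.38 after contusion. All contusion samples lay above all controls by about 1 log2 unit. Its difference was 1.25 ± 0.10 (limma adjusted p = 0.000140), that of NONMMUT022145 was 1.23 ± 0.14, and that of the RefSeq probe for 9330188P03Rik was 1.23 ± 0.11.

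NONMMUT089116, which shares 59 bases with 5033406O09Rik, rose by 0.95 ± 0.14, and NONMMUT021707 of 1700108F19Rik by 0.87 ± 0.12. NONMMUT021163 of Dleu2, a long noncoding RNA that hosts a microRNA cluster, rose by 0.64 ± 0.14. NONMMUT083951 of Mir22hg, another microRNA host, rose by 0.50 ± 0.09 and had levels of 1.39, 1.70, 1.71 and 1.63 in controls and 2.04, 2.17, 2.15 and 2.09 after contusion. The groups did not overlap.

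Pantr1 and Cerox1 were among the RNAs that fell. NONMMUT000736 of Pantr1, which lies beside the neural transcription factor gene Pou3f3, had levels of 3.55, 3.63, 3.62 and 3.80 in controls and 3.02, 3.08, 3.10 and 2.97 after contusion. Its difference was -0.60 ± 0.07 (limma adjusted p = 0.000486), with no overlap. NONMMUT100831 of Cerox1, a regulator of the transcripts of mitochondrial complex I subunits, had levels of 4.98, 5.57, 5.23 and 5.57 in controls and 4.93, 4.63, 4.64 and 4.48 after contusion. All contusion samples were lower, contusion 1 by little, and the difference was -0.67 ± 0.16 (limma adjusted p = 0.00999, and 0.0503 with replicate number as a block). NONMMUT118368 of 9630001P10Rik had a difference of -1.16 ± 0.14 and NONMMUT083864, which shares 53 bases with the noncoding transcript listed under Rnf227, one of -0.90 ± 0.08. NONMMUT009892 and NONMMUT085264 of 2010001A14Rik had differences of -0.77 ± 0.09 and -0.67 ± 0.10. NONMMUT137220 of Ftx, a noncoding gene of the X-inactivation centre, had a difference of 0.10 ± 0.20 and was not called.

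Both probes that share 30 bases or more with a microRNA hairpin of RefSeq were called (background 38.6% of all features), in different directions. The probe of NONMMUT002934 lies whole inside the hairpin of Mir181b-1, at chr1:137966639-137966718 in GRCm38.p6, and holds the whole mature mmu-miR-181b-1-3p, whose bases are in capitals in the first line. In the second line the seed of that microRNA, its bases 2 to 8, is in capitals.
NONMMUT002934: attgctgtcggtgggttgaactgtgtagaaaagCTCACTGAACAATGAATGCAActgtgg
mmu-miR-181b-1-3p: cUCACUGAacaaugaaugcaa
Its levels were -2.44, -2.45, -3.63 and -3.30 in controls and -3.95, -4.17, -4.02 and -3.33 after contusion. The groups overlapped, since contusion 4 lay above control 3, and the difference was -0.91 ± 0.31 (limma adjusted p = 0.0464). The call was lost under 10 of 20 alternatives, with an adjusted p of up to 0.236, among them the replicate block and centring by G and C over all probes. The probe of NONMMUT129599 shares 37 bases with the hairpin of Mir690, at chr16:28599935-28600043. The probes of NONMMUT129032 and NONMMUT129669, with numbers on either side of it, match gene starts on chromosome 8. The place that the probe of NONMMUT129599 reads is thus uncertain. The levels of NONMMUT129599 were 5.41, 4.90, 5.23 and 5.20 in controls and 5.55, 5.73, 5.61 and 5.73 after contusion. The groups did not overlap, and the rise was 0.47 ± 0.11 (limma adjusted p = 0.0107). Such a probe reads any RNA that holds these bases, so that the mature microRNA was not measured.

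A few transcripts could be placed next to a gene start. The probes of 208 transcripts lay whole, with no mismatch, in the window from 250 bases before to 50 after the start of a RefSeq gene (assembly GRCm38.p6), in 111 cases reading in the gene's direction and in 107 in the opposite one. Of the 112 of these that were tested, 26 were called (23.2%, background 38.6% of all features), 12 higher and 14 lower. In 35 opposite pairs with a tested mRNA the difference of the transcript correlated with that of the mRNA at r = 0.555 (Spearman 0.274), but at 0.181 without the pair of Ccl3. All values come from the same 8 arrays, and these pairs are few. In the 15 pairs that read in the gene's direction r was 0.0669. Over the 50 pairs of either direction both partners were called in 9, 7 of them the same way. Among the 35 opposite pairs both were called in 7, 5 of them the same way. Over all tested mRNAs 51.1% were called, and the counts of pairs were not tested against that share.

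The pair that stood out was NONMMUT084062 and Ccl3, a chemokine of macrophages and microglia. The probe lies at chr11:83649504-83649563 in GRCm38.p6, 126 to 185 bases before the start of Ccl3 and on the opposite strand. The transcript's levels were -5.31, -6.81, -5.57 and -6.43 in controls and -3.38, -4.04, -3.34 and -3.47 after contusion, and those of the Ccl3 mRNA probe 0.68, -0.21, -0.76 and -1.43 and then 2.73, 2.26, 2.83 and 2.73. Both were high in every contusion sample. NONMMUT084062 was at least 3.77-fold higher, with no control well above background (fitted difference 2.48 ± 0.34, limma adjusted p = 0.000791), and Ccl3 rose by 3.07 ± 0.40. With normexp the difference of NONMMUT084062 was 0.35, still called. The 6 macrophage and microglia markers rose in the same samples, and their part in this result was not tested.

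NONMMUT009257, at chr11:34784028-34784087 on the opposite strand before Dock2, a signalling protein of blood cells, rose by 0.91 ± 0.24 (limma adjusted p = 0.0157) beside 0.90 ± 0.11 for Dock2. NONMMUT015058, before Tmed10, a cargo receptor of the secretory pathway, rose by 1.17 ± 0.24 beside 0.50 ± 0.07. Each of these 2 transcripts was well above background in 1 of 4 controls, and with normexp neither was called (differences of 0.10 and 0.12, limma adjusted p = 0.316 and 0.165). Before Hcn2, a pacemaker channel of neurons, NONMMUT082255 had levels of -1.99, -1.87, -1.88 and -1.92 in controls and -2.57, -2.47, -2.62 and -2.10 after contusion. It was lower in all contusion samples, with a difference of -0.52 ± 0.11 (limma adjusted p = 0.00753), and Hcn2 itself had one of -0.81 ± 0.11. NONMMUT136218 before Maged1 had -0.69 ± 0.12 beside -0.27 ± 0.06. The 2 pairs that went opposite ways were NONMMUT001524 with -0.61 ± 0.11 beside a rise of Tmbim1 by 0.37 ± 0.09, and NONMMUT080710 with a rise of 0.33 ± 0.10 beside -0.46 ± 0.08 for Cradd. The call of NONMMUT080710 was lost under 10 of 20 alternatives, among them normexp (limma adjusted p = 0.0517). The 8 neuronal markers also fell in the contused cord, and their part in these falls was not tested.

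The excess of falls followed the base composition of the probes. Over transcripts with 20 or fewer G and C among the 60 bases, the median difference was -0.24, and 33.3% of the 162 tested were called lower. With 21 or 22 it was -0.21 and 32.8% of 7549. With 27 or 28 it was -0.02 and 13.8% of 9864, and with 33 or more it was 0.06 and 6.67% of 720. The share called higher stayed between 4.94% and 7.64%.

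The same order was seen within each slide, in each level band, and among transcripts detected in all 8 samples. Within slide 1 the median went from -0.27 at 21 or 22 G and C to -0.01 at 33 or more, and within slide 2 from -0.18 to -0.07. In the brightest band, 49.4% of probes with 22 or fewer G and C were called lower, 32.5% with 23 to 28 and 20.4% with 29 or more. The Ensembl lncRNAs had a like order, with -0.15 at 21 or 22, 0.03 at 29 to 32 and -0.00 at 33 or more. For mRNAs the medians went the same way over a smaller range, from -0.03 at 21 or 22 to 0.04 at 33 or more. Between the same classes they went from -0.08 to 0.00 for circular RNAs and from -0.09 to 0.08 for RefSeq noncoding RNAs. By array, the median deviation of NONCODE probes with 22 or fewer G and C minus that of probes with 29 or more was -0.04, 0.20, 0.14 and 0.16 in control 1 to 4 and -0.05, -0.12, -0.15 and -0.13 in contusion 1 to 4. The lowest control, control 1, lay next to the highest contusion sample, contusion 1, and each of them is the only sample of its group on its slide. The part of this measure in the calls was not tested beyond the centring below. Whether the order by G and C comes from the tissue or from labelling or hybridisation of the arrays was not tested.

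**Figure D4:**
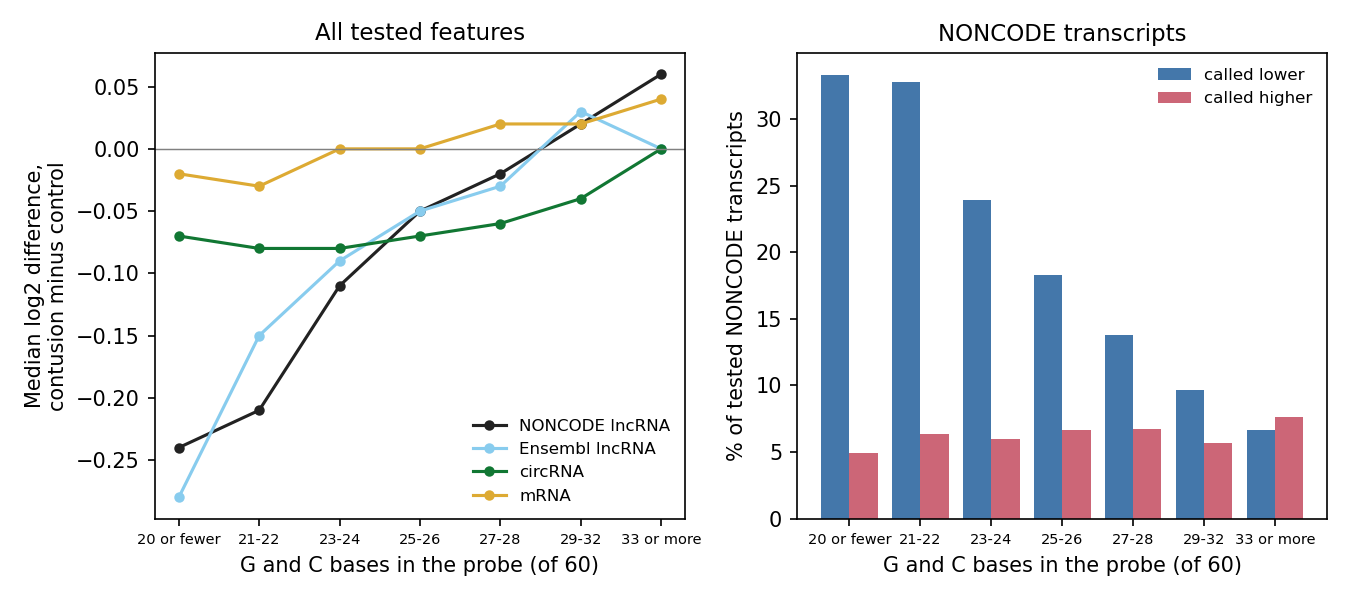
Left, median log2 difference (contusion minus control) of tested features by the number of G and C among the 60 bases of the probe, for 4 RNA classes; right, percentage of tested NONCODE transcripts called lower (blue) and higher (red). The NONCODE line climbs from -0.24 to 0.06 and the share called lower drops from 33.3% to 6.67%, while the mRNA line stays between -0.03 and 0.04.

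The split of the calls moved with centring by the base composition of the probes. When each array was centred within classes of probe G and C over all probes, an alternative added after the data were seen, 2545 transcripts were called higher and 5082 lower, and when it was centred over NONCODE probes alone, 3105 and 4325. Rises then made up 33.4% and 41.8% of the calls, against 23.7% without centring. For calls of at least 2-fold the majority turned in the last case, to 462 higher and 353 lower. That centring brings the NONCODE median difference near 0 by construction (0.01), so that a more even split is partly built in. Among mRNAs the share of calls that were rises went from 50.4% to 65.3% with it. Centring without classes of G and C was not run. With centring over NONCODE probes, the 28 called transcripts among those named by size, band or p all kept their call and sign, with shifts of at most 0.22. The steady transcript NONMMUT011271 was called under it, at 0.24 (limma adjusted p = 0.0156).

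Part of the falls stood in blocks of neighbouring numbers. When the tested transcripts were put in the order of their NONMMUT numbers, 1370 of the 6131 falls (22.3%) stood in 169 unbroken runs of 5 or more, and 175 in 7 runs of 20 or more. Rises stood in 10 runs of 5 or more, with 57 of the 1907 rises (2.99%). Falls were 20.9% of the tested transcripts and rises 6.49%, so that runs of falls are likelier from their number alone. The probes of falls in runs of 5 or more had a median of 22 G and C bases, against 24 for the other falls. For rises the medians were 24 and 26. These runs were found after the values were seen. Few neighbouring probes within runs overlapped: of 1248 neighbours, 4 shared 30 bases or more, and 949 had consecutive numbers. Probes on different parts of the same RNA need not share bases, so this count cannot show that neighbours read separate RNAs. Whether the members of a run are separate RNAs was not tested. Numbers follow the genome at least in part, since of 148 pairs of neighbouring transcripts placed at a gene start and at most 500 numbers apart, 140 lay on the same chromosome.

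Across 12364 pairs of tested transcripts with consecutive numbers, the differences correlated at r = 0.399, and at r = 0.369 after the median of each count of G and C was taken off. Among neighbours in order whose numbers lay 11 to 50 apart, with no tested transcript between them, the differences correlated at r = 0.0696 over 957 pairs. These are not all pairs at that distance, so that a change of r with distance was not measured. These are descriptions, since all pairs share the same 8 arrays. With centring by G and C over NONCODE probes the falls still had 100 runs of 5 or more, holding 732 of 4325 falls, and the longest was of 16 in place of 38. The length of the runs moved with other settings too. The longest run of falls was of 21 with normexp, where 73 runs held 563 falls, of 64 with slide as a block and of 73 with detection in all 8 samples required.

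The longest run held 38 transcripts, from NONMMUT100108 to NONMMUT100153, all called lower. Their median level was -1.51, -1.48, -1.58 and -1.34 in control 1 to 4 and -2.09, -2.03, -2.25 and -2.16 in contusion 1 to 4. The groups did not overlap, and the single differences lay between -1.04 and -0.39, with a median of -0.69. Of the 38, 37 were well above background in all 8 samples. The nearest transcripts placed at a gene start on either side in number were both on chromosome 16.

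A run with larger falls went from NONMMUT126289 to NONMMUT126308 and held 11 transcripts, 4 of which are among the 6 largest fitted falls above. Their fitted differences lay between -3.25 and -0.47, with a median of -1.90, but 3 of the 11 had no contusion sample above background and 3 others only some. With such samples set to their arrays' lowest level well above background, the differences lay between -2.44 and -0.47, with a median of -1.31. NONMMUT126289, its first member, had levels of -2.99, -2.60, -2.79 and -2.32 in controls and -4.67, -5.49, -4.81 and -5.00 after contusion, with a difference of -2.32 ± 0.20 (limma adjusted p = 0.000166). NONMMUT126295, the least changed, had a difference of -0.47 ± 0.10. The placed transcripts on either side in number were both on chromosome 7.

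Among the rises, 7 transcripts from NONMMUT022744 to NONMMUT022754 had differences between 1.07 and 1.49, and 2 of the 7 were above background in only some controls. NONMMUT022754 had levels of -0.42, -0.59, -0.15 and -0.86 in controls and 0.83, 0.97, 0.85 and 1.26 after contusion, with no overlap and a rise of 1.49 ± 0.16 (limma adjusted p = 0.000318). The 5 transcripts from NONMMUT014672 to NONMMUT014679 rose by 1.17 to 1.59, and all 5 were well above background in all 8 samples. NONMMUT014675, the one with the smallest adjusted p (8.21e-05, limma), rose by 1.56 ± 0.10.

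**Figure D5:**
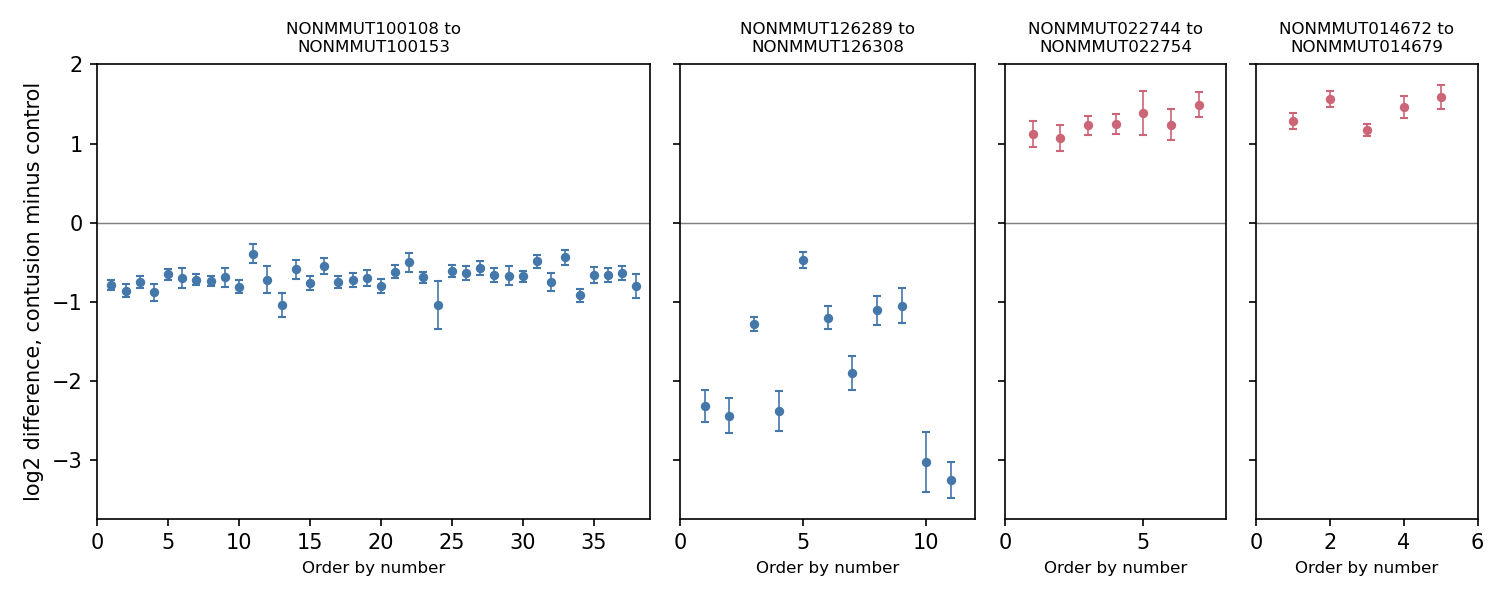
log2 difference (contusion minus control; bars, SE) of each transcript in 4 runs of neighbouring NONMMUT numbers, in the order of the numbers; blue, falls; red, rises. The 38 falls of the longest run lie between -1.04 and -0.39, the 11 of the next between -3.25 and -0.47 as fitted, with 3 of these 11 at background in all contusion samples, and the rises of the other runs between 1.07 and 1.59.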

How the data were processed

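The scanner files hold 1-colour intensities (gProcessedSignal, gMeanSignal and gBGMedianSignal) and detection flags as deposited by the authors, made with Agilent Feature Extraction, version 10.7 per the submitters' processing notes and 12.0.3.1 per the file headers. Processed intensity is background-subtracted by that software, per the file headers. The deposited series table holds the authors' log2 values of the same arrays. Its method beyond the named tool limma is not given in the sources used here. Identifiers, probe sequences and flags (other columns) came from the deposited scanner files.

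Control spots and outlier spots were left out, and 43 NONCODE probes lack a value for that reason in at least 1 sample. Log2 intensity was scaled to each array's 75th percentile. Probes well above background in at least 4 of 8 samples were tested with limma 3.58.1 (R 4.3.3), group as the only term, 1 probe per feature, Benjamini-Hochberg over 89139 features. The script was tested on simulated data. The number of arrays, 4 per group, limits the precision, and p-values measure the spread between these samples.

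Named transcripts were the 6 largest rises and falls whose groups do not overlap and that are well above background in all samples of the higher group, the largest in each level band among those detected in all 8 samples, the 3 smallest p-values each way, the 3 smallest each way among those detected in 1 group only, and the steadiest in each band. Members, lists and rules were chosen with earlier results of these data known. Transcripts named through RefSeq overlap, microRNA hairpins, gene starts or runs were chosen after their values were seen.

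Probe pairs sharing at least 30 bases were found by exact match. Gene names, microRNA sequences and windows at gene starts came from RefSeq tables (GRCm38.p6). No genome was used here, so most transcripts have no position. All 3 mRNA probes found in their own gene's window read in the gene's direction. Alternatives were normexp (offset 50), quantile and median scaling, the authors' table, 3 filters, the mean of probes, slide and replicate blocks, each sample left out, and the added centring by G and C. The labels do not say that replicate numbers pair the samples. The deviations of same-numbered samples correlated at -0.34, -0.03, -0.05 and 0.01. Same-numbered samples all lay on different slides, so that these values cannot exclude a pairing.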

Additional observations from a re-analysis of the deposited data

Results flagged for a closer look

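There were 3 single samples that stood apart from the other 3 of their group by Dixon's criterion, of 71 groups of 4 samples checked over the named transcripts. Chance flags about 1 in 20 groups. For NONMMUT114062 the level in contusion 3 was -3.17, against -3.36 to -3.35 in the other contusion samples. For NONMMUT084830 the level in contusion 2 was -0.66, against 0.12 to 0.27 in the others, and the rise held in every sample. For NONMMUT106474 the level in control 1 was -4.97, against -4.70 to -4.66 in the other controls. No explanation was tested for any of the 3.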

How the results depend on the processing

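Of 256 values of the counts under the alternatives, 234 stayed within 1.5 times the main count and 22 moved further. Of 646 values of the 33 transcripts named by size, band, p or steadiness, 643 kept their side of the threshold, and no call reversed. Of the 105 called transcripts linked through RefSeq probes, hairpins, gene starts or the 4 runs shown, 28 lost the call under at least 1 alternative (124 of 2080 values), and none reversed. With normexp, 5163 transcripts were called, 1229 higher and 3934 lower, 56 by at least 2-fold (39 higher, 17 lower), and 839 under a level of -3. With no filter, 1650 were called by at least 2-fold (611 higher, 1039 lower), and with detection in all 8 samples required, 458 (176 higher, 282 lower). With centring by G and C over NONCODE probes, 3105 were called higher at any size and 353 lower by at least 2-fold (462 higher), and NONMMUT011271 was called (0.24, limma adjusted p = 0.0156). With the flag for a positive and significant signal, 3930 probes were detected in no sample, 43 in every contusion and no control sample and 111 in the reverse case. The causes were not tested.

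With each sample left out in turn, 6347 to 8760 transcripts were called, 1422 to 2612 higher and 4925 to 6148 lower. By at least 2-fold there were 858 to 1348, 314 to 539 higher and 544 to 814 lower. Detection in every contusion and no control sample went from 77 to 106 and the reverse from 284 to 521, where fewer samples ease the condition. The replicate block, for numbers that the labels do not give as pairs, gave 6700 calls, 1429 higher and 5271 lower. Dim probes also limit the sizes, since 15358 of the 29401 tested transcripts lie under a level of -3. Their standard errors have a median of 0.198, against 0.0858 at a level of 2 or more.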
